A study of Mus musculus with 10 samples.

Results

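The metalloproteases of the ADAM, ADAMTS and MMP families and the TIMP inhibitors were examined in whole ovaries of 3-week-old mice. Members were taken by gene symbol, as every measured gene named Adam, Adamts or Mmp with a number and at most 1 letter, or Timp with a number, leaving out Adamts1. This gave 54 of the 22891 genes in the table, of which 19 belonged to the Adam class, 17 to the Adamts class, 14 to the Mmp class and 4 to the Timp class. RNA was sequenced from 5 ovaries labelled Uba3 cKO and 5 control ovaries. UBA3 carries the active site of the E1 enzyme for NEDD8, a small modifier protein related to ubiquitin. All ovaries came from 3-week-old mice of the C57/Bl6/N;129SvEv7 strain. The labels name neither the Cre line and deleted exons of the Uba3 cKO mice nor the alleles the control mice carried. Whether each ovary is from a different animal is not given, so a p-value here reflects only how these samples vary, which may be technical.

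Metalloproteases of these families hold a zinc ion in the active site and are made with a prodomain that keeps them silent until it is removed. MMPs cut collagens and other matrix proteins, ADAMs mostly release membrane proteins such as growth factors from the cell surface, and ADAMTS proteases trim procollagens and the proteoglycans versican and aggrecan. TIMPs bind the active site and stop the enzyme. In the ovary such proteases remodel the follicle wall and the stroma as follicles grow, and versican is cut in the matrix around the oocyte near ovulation.

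Promoters of 30 of the 54 members were matched by symbol in RefSeq (build GRCm38.p6). The set below shows the member with the highest level per length in each class, and Mmp1b, a collagenase gene that was among the lowest in these ovaries. Capitals mark GC boxes (GGGCGG on either strand), AP-1 sites (TGANTCA) and TATA boxes (TATAAA on either strand), which a script searched with overlaps allowed.
Adamts2, chr11:50601835-50602134, plus strand: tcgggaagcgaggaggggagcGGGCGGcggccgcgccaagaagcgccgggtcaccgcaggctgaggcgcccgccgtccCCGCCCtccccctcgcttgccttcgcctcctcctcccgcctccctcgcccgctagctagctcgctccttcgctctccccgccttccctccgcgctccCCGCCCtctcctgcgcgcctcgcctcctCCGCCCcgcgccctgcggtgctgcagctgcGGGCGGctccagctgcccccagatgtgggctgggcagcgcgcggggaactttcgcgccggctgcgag
Mmp11, chr10:75932453-75932752, minus strand: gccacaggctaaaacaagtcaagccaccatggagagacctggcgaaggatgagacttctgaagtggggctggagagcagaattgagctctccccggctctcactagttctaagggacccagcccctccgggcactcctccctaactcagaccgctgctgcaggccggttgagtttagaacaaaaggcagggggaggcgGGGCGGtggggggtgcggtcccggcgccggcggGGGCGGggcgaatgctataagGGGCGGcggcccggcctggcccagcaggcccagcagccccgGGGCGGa
Adam10, chr9:70678732-70679031, plus strand: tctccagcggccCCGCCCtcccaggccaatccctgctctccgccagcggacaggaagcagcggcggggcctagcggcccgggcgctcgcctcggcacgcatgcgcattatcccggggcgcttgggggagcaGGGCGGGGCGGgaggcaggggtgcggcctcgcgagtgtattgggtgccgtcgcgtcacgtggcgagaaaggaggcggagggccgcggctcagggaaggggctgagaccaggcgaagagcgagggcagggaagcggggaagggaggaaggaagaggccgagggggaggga
Timp2, chr11:118355362-118355661, minus strand: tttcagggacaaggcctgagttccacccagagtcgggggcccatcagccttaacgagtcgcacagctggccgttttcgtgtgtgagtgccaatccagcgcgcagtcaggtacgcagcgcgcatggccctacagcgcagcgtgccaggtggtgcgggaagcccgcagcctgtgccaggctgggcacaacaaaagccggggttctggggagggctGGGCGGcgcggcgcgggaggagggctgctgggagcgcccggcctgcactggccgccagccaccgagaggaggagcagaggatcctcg
Mmp1b, chr9:7387977-7388276, minus strand: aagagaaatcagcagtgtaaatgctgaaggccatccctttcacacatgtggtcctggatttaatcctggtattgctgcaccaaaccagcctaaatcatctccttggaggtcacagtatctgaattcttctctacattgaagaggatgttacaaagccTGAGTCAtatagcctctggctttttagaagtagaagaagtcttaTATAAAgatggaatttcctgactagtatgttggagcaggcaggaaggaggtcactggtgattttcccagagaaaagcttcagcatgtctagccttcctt
The 4 abundant members held between 1 and 5 GC boxes and no match to the other letters, whereas Mmp1b held 1 AP-1 site, 1 TATA box and no GC box. A GC box occurred in 16 of 24 matched members that passed the filter on low levels (66.7%), beside 63.0% of all 11401 tested genes with a promoter. It occurred in 3 of 6 members below that filter, beside 29.6% of 2707 genes below it. AP-1 letters were found in 7.93% and TATA letters in 14.2% of the 27025 genes with a RefSeq promoter, and Mmp1b was the one matched member with either. These matches describe letters in the window and do not show binding.

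Values are the authors' normalized levels on a log2 scale, so that a difference of 1 is a 2-fold change, and the sequencing depth behind them is unknown. Library medians lay between 6.29 and 6.44. A filter on low levels kept genes whose mean reached 3.32, which is 10 in linear units, and left 15629 genes and 43 members to test with limma. The targeted gene, Uba3 (ENSMUSG00000030061), stood at 10.12 ± 0.069 (SD, n = 5) in Uba3 cKO ovaries and 10.12 ± 0.18 (SD, n = 5) in controls. Its log2 difference was 0.0032 (95% interval -0.17 to 0.18; exact two-sided permutation p = 1), so it did not separate the groups and the labels were not checked by it. Granulosa markers stood at 13.44 ± 0.10 in Uba3 cKO ovaries and 13.38 ± 0.084 in controls and oocyte markers at 9.82 ± 0.36 in Uba3 cKO ovaries and 9.84 ± 0.30 in controls (SD, n = 5), with 12 of 12 and 16 of 16 markers above the filter. Control replicate 3 stood apart from the other libraries, with the lowest value of all 10 libraries in 25.5% of tested genes and the highest in 23.6%.

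No member passed adjustment over all genes. Of the 43 members tested, 0 had an adjusted p under 0.05 by limma with Benjamini-Hochberg adjustment (all at 1.0), where 0 of all 15629 genes did (0%). At an unadjusted p under 0.05 there were 0 members, beside 1.79% of all genes (0.973% higher and 0.819% lower in Uba3 cKO ovaries), and in 0 members did the groups fail to overlap, beside 0.320% of all genes. The mean was higher in Uba3 cKO ovaries in 29 members and lower in 14, where 50.2% of all tested genes had the higher mean in Uba3 cKO ovaries. The median difference was 0.036 over the members and 0.00034 over all genes. Without control replicate 3, 24 members had the higher mean, beside 47.3% of all genes, and the median was 0.0038. Differences ran from -0.28 for Mmp11 to 0.32 for Mmp2. The 95% interval lay within 0.5 log2 units of 0 in 37 of 43 members (86.0%), where it did in 94.9% of all genes, and within 1 log2 unit in all 43, beside 99.7% of all genes. On the deposited scale, a difference of 2-fold or more therefore lay outside the interval of every tested member, at the level of the whole organ. The spread of low genes is compressed on this scale, so for low members these intervals may understate the difference in RNA. In whole ovaries, fewer cells of a type and less RNA per cell cannot be told apart.

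**Figure D1:**
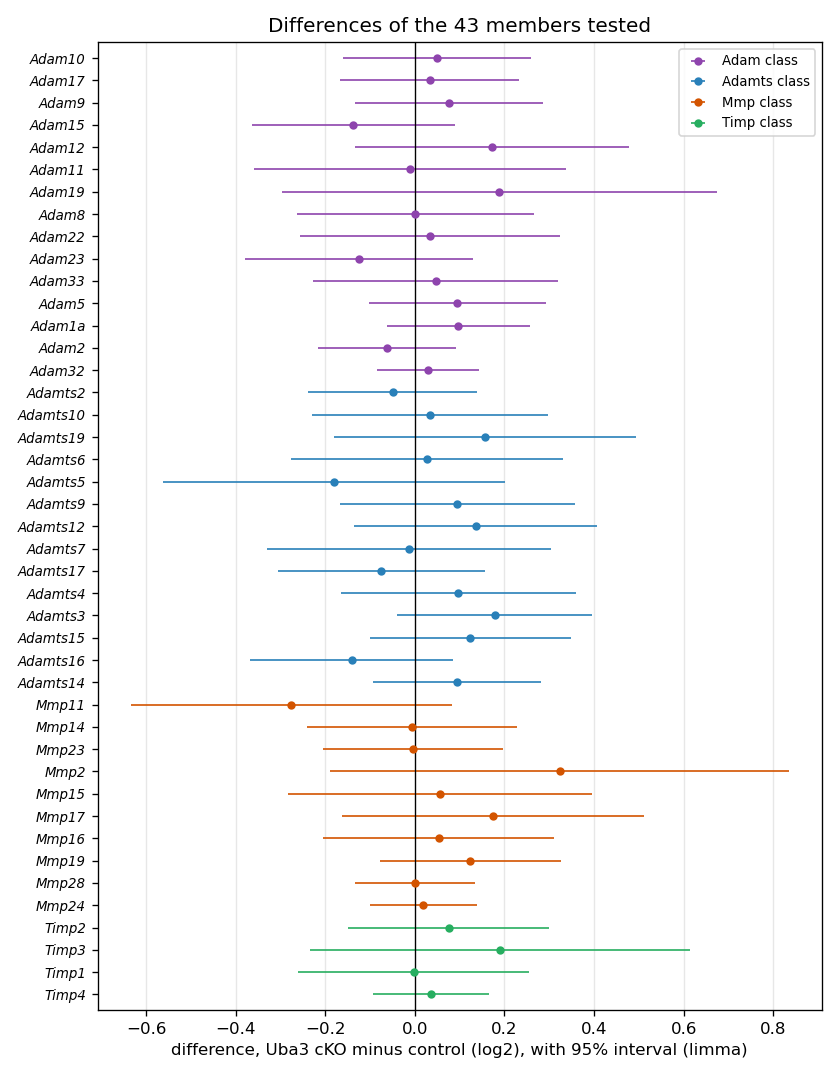
Difference of each tested member between Uba3 cKO and control ovaries (x axis, log2 units, Uba3 cKO minus control), with points for the limma estimate and bars for the 95% interval, coloured by class. All 43 intervals include 0, and the outermost points are Mmp11 at -0.28 and Mmp2 at 0.32.

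Deposited levels were set per kilobase of annotated exon to compare genes with each other. On this log2 scale per kilobase, Adamts2 was highest at 10.37, followed by Mmp11 at 10.09, Adam10 at 9.90, Timp2 at 9.10 and Mmp23 at 9.06. Adamts2 lay above 96.8% of all tested genes with a known length and Timp2 above 90.1%. The next members were Adam17 at 8.41, Adamts10 at 8.34, Mmp14 at 8.20 and Adam9 at 8.11, all on the same scale.

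**Figure D2:**
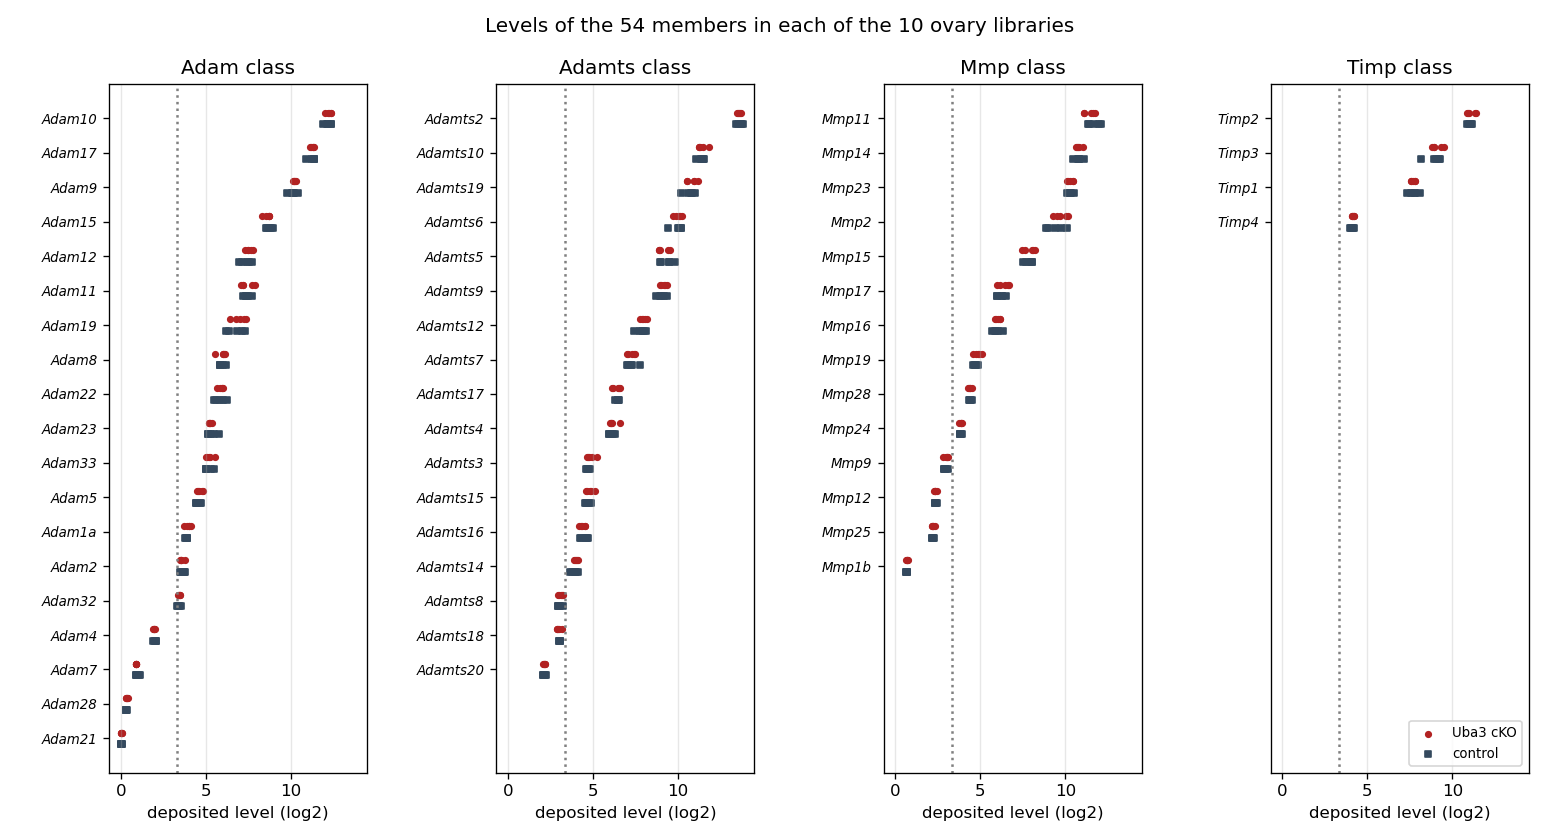
Deposited level (x axis, log2) of all 54 members in each library, in 4 panels by class, with a circle for each Uba3 cKO ovary and a square for each control ovary. The dotted line marks the filter at 3.32, and the groups overlap in every member to its right.

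Among the ADAMs, the sheddases formed the abundant part. Adam10, which releases Notch receptors and other cell surface proteins, had levels of 12.00, 12.24, 12.20, 12.33 and 12.36 in Uba3 cKO replicates 1 to 5, against 12.20, 12.12, 11.87, 12.32 and 12.36 in control replicates 1 to 5. The groups overlapped, with the lowest value in control replicate 3. Its log2 difference was 0.049 (standard error 0.097, 95% interval -0.16 to 0.26). Adam17, which releases tumour necrosis factor and ligands of the EGF receptor, stood at 11.32, 11.19, 11.28, 11.14 and 11.37 in Uba3 cKO ovaries, against 11.35, 11.26, 10.86, 11.34 and 11.33 in controls. Control replicate 3 again lay below every other library, and the difference was 0.033 (standard error 0.092). Without that library the differences were -0.028 for Adam10 and -0.059 for Adam17. Adam9, a further broadly expressed sheddase, averaged 10.19 ± 0.070 in Uba3 cKO ovaries and 10.12 ± 0.23 in controls (SD, n = 5), with a difference of 0.077, and -0.013 without control replicate 3.

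The remaining sheddases lay lower. Adam15, which carries an integrin-binding disintegrin domain, averaged 8.59 ± 0.18 in Uba3 cKO ovaries and 8.72 ± 0.17 in controls (SD, n = 5). Its difference was -0.14 (standard error 0.10). That difference was -0.061 without Uba3 cKO replicate 5, -0.077 without control replicate 3 and -0.18 without control replicate 2. Adam15 had, with Adam1a, one of the smallest unadjusted p values of its class, at 0.212 by limma. Adam12 stood at 7.53 ± 0.18 in Uba3 cKO ovaries and 7.36 ± 0.31 in controls, Adam8 at 5.93 ± 0.24 in Uba3 cKO ovaries and 5.93 ± 0.17 in controls, and Adam33 at 5.21 ± 0.22 in Uba3 cKO ovaries and 5.16 ± 0.23 in controls. Adam28 was close to the bottom of the scale, with no library above 0.42. Adam19, also called meltrin beta, had the widest spread of the class. Its levels were 7.03, 7.21, 6.75, 7.37 and 6.43 in Uba3 cKO ovaries, against 7.30, 7.14, 6.20, 6.85 and 6.36 in controls. High and low libraries occurred in both groups, and the difference of 0.19 was smaller than its standard error of 0.22. Leaving out 1 library moved it between 0.045 without control replicate 3 and 0.32 without control replicate 1.

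The receptor-like ADAMs lack a working protease site, and Adam22 and Adam23 are known as receptors for LGI proteins in neurons. Adam11 was the highest of them, at 7.70, 7.05, 7.90, 7.20 and 7.18 in Uba3 cKO ovaries, against 7.35, 7.48, 7.34, 7.21 and 7.71 in controls. Its range in Uba3 cKO ovaries enclosed all controls, and the difference was -0.011 (standard error 0.16). Adam22 averaged 5.86 ± 0.15 in Uba3 cKO ovaries and 5.83 ± 0.30 in controls, and Adam23 5.25 ± 0.083 in Uba3 cKO ovaries and 5.37 ± 0.28 in controls (SD, n = 5).

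ADAMs known mainly from testis and sperm were low. Adam5 was the highest, at 4.62, 4.47, 4.81, 4.52 and 4.78 in Uba3 cKO ovaries, against 4.73, 4.41, 4.42, 4.67 and 4.50 in controls. Its difference was 0.095 (standard error 0.091), and the groups overlapped. It lay between 0.052 without Uba3 cKO replicate 3 and 0.14 without control replicate 1. Adam1a, whose protein is a partner of ADAM2 in the testis, averaged 3.96 ± 0.16 in Uba3 cKO ovaries and 3.86 ± 0.051 in controls. Its difference was 0.097, with 0.049 without Uba3 cKO replicate 1 and 0.15 without Uba3 cKO replicate 3. The annotated exons of Adam1a share 4779 of 7508 bases with Gm42878 on the same strand, and its reads may be split with that gene and with Mapkapk5. Adam2, the beta subunit of the sperm protein fertilin, averaged 3.58 ± 0.095 in Uba3 cKO ovaries and 3.64 ± 0.13 in controls, and Adam32 3.43 ± 0.043 in Uba3 cKO ovaries and 3.40 ± 0.087 in controls. Adam4, Adam7 and Adam21 lay below the filter, with means of 1.97, 0.94 and 0.028 over the 10 libraries.

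The ADAMTS class held the most abundant member of all. Adamts2, the procollagen N-proteinase that trims fibrillar procollagens, had levels of 13.49, 13.57, 13.70, 13.47 and 13.63 in Uba3 cKO ovaries, against 13.80, 13.40, 13.50, 13.71 and 13.69 in controls. The groups overlapped over most of their range. The difference was -0.050 (standard error 0.087, 95% interval -0.24 to 0.14), a fold between 0.848 and 1.10. Leaving out 1 library moved the difference between -0.10 without control replicate 2 and -0.0054 without control replicate 1. Adamts3 and Adamts14, the other procollagen N-proteinases, were far lower. Adamts3 had levels of 4.75, 4.94, 4.71, 5.22 and 4.67 in Uba3 cKO ovaries, against 4.63, 4.69, 4.81, 4.68 and 4.59 in controls. Its difference of 0.18 (standard error 0.10) had the smallest p of all members, an unadjusted 0.100 by limma. That difference was 0.088 without Uba3 cKO replicate 4 and 0.23 without Uba3 cKO replicate 5. Adamts14 averaged 3.99 ± 0.091 in Uba3 cKO ovaries and 3.90 ± 0.19 in controls.

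Hyalectanases cut versican and aggrecan. Of those among the members, which leave out Adamts1, Adamts5 was the highest. It had levels of 8.89, 8.96, 9.41, 8.89 and 9.54 in Uba3 cKO ovaries, against 9.79, 8.97, 8.93, 9.44 and 9.44 in controls. Each group held libraries near 8.9 and libraries above 9.4, and the difference was -0.18 (standard error 0.18). Without control replicate 1 it was -0.061, and its range over the libraries left out in turn reached -0.28. Adamts9 averaged 9.12 ± 0.17 in Uba3 cKO ovaries and 9.02 ± 0.26 in controls, Adamts4 6.17 ± 0.24 in Uba3 cKO ovaries and 6.07 ± 0.16 in controls, and Adamts15 4.80 ± 0.22 in Uba3 cKO ovaries and 4.68 ± 0.12 in controls. Adamts8 and Adamts20 lay below the filter, with means of 3.06 and 2.12.

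The other ADAMTS proteases ran from abundant to near the filter. Adamts10, which binds fibrillin microfibrils, had levels of 11.82, 11.21, 11.46, 11.20 and 11.31 in Uba3 cKO ovaries, against 11.34, 11.52, 11.05, 11.47 and 11.44 in controls. Its highest and second lowest values were both in Uba3 cKO ovaries, and the difference was 0.034 (standard error 0.12). Adamts6, its closest relative, had levels of 10.06, 9.87, 10.13, 9.72 and 10.21 in Uba3 cKO ovaries, against 10.05, 10.01, 9.42, 10.18 and 10.19 in controls. The value of 9.42 was in control replicate 3, and the difference was 0.028 (standard error 0.14), or -0.11 without that library. Adamts19 averaged 10.81 ± 0.29 in Uba3 cKO ovaries and 10.66 ± 0.31 in controls. Adamts12 and Adamts7, which cut cartilage oligomeric matrix protein, averaged 7.96 ± 0.15 in Uba3 cKO ovaries and 7.83 ± 0.27 in controls for Adamts12 and 7.25 ± 0.22 in Uba3 cKO ovaries and 7.26 ± 0.29 in controls for Adamts7. Adamts17 averaged 6.37 ± 0.22 in Uba3 cKO ovaries and 6.45 ± 0.088 in controls. Adamts16 averaged 4.35 ± 0.15 in Uba3 cKO ovaries and 4.49 ± 0.21 in controls (difference -0.14, standard error 0.10). That difference was -0.090 without Uba3 cKO replicate 5 and -0.21 without control replicate 5. Adamts18 lay below the filter at a mean of 3.00.

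Among the MMPs, Mmp11 and Mmp2 had the differences farthest from 0. Mmp11, stromelysin-3, an enzyme that furin activates before secretion, had levels of 11.65, 11.10, 11.77, 11.09 and 11.50 in Uba3 cKO ovaries, against 11.96, 11.35, 12.08, 11.70 and 11.40 in controls. Uba3 cKO replicates 2 and 4 lay below every control, whereas the other 3 lay within the control range. The difference was -0.28 (standard error 0.17, 95% interval -0.63 to 0.083). It was -0.18 without control replicate 3 and -0.36 without Uba3 cKO replicate 3. Mmp2, gelatinase A, which degrades basement membrane collagen, had levels of 9.70, 10.19, 9.49, 10.07 and 9.27 in Uba3 cKO ovaries, against 10.12, 9.40, 8.97, 9.75 and 8.85 in controls. High values of about 10 occurred in both groups and values below 9 in controls alone. The difference was 0.32 (standard error 0.24, 95% interval -0.19 to 0.84). It was 0.18 without control replicate 5, 0.21 without control replicate 3, 0.21 without Uba3 cKO replicate 2 and 0.50 without control replicate 1.

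The membrane-bound MMPs ran from abundant to below the filter. Mmp14, which activates pro-MMP2 at the cell surface together with TIMP2, had levels of 10.77, 10.78, 10.67, 11.03 and 10.62 in Uba3 cKO ovaries, against 11.08, 10.75, 10.82, 10.81 and 10.44 in controls. The control range enclosed all Uba3 cKO values, and the difference was -0.0059 (standard error 0.11). Mmp23, a membrane-anchored MMP found in reproductive tissues, averaged 10.29 ± 0.17 in Uba3 cKO ovaries and 10.29 ± 0.16 in controls, with a difference of -0.0043 (95% interval -0.20 to 0.20). Mmp15 averaged 7.89 ± 0.33 in Uba3 cKO ovaries and 7.83 ± 0.23 in controls, Mmp17 6.38 ± 0.32 in Uba3 cKO ovaries and 6.21 ± 0.24 in controls, Mmp16 6.04 ± 0.14 in Uba3 cKO ovaries and 5.99 ± 0.25 in controls, and Mmp24 3.87 ± 0.068 in Uba3 cKO ovaries and 3.85 ± 0.066 in controls (SD, n = 5). Mmp25 lay below the filter at a mean of 2.22.

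The remaining MMPs were low. Mmp19 averaged 4.85 ± 0.19 in Uba3 cKO ovaries and 4.73 ± 0.11 in controls (difference 0.12, standard error 0.093). That difference was 0.063 without Uba3 cKO replicate 4 and 0.19 without Uba3 cKO replicate 3. Mmp28, epilysin, averaged 4.40 ± 0.087 in Uba3 cKO ovaries and 4.40 ± 0.059 in controls. Mmp9, gelatinase B, stood at a mean of 2.98, Mmp12, the macrophage elastase, at 2.37 and the collagenase gene Mmp1b at 0.68, all below the filter. Mmp1b had levels between 0.65 and 0.75 in every library of both groups. In all, 11 members lay below the filter, and they are given here as levels without a test.

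The 4 TIMPs covered a wide range of levels. Timp2, which both inhibits MMPs and helps to activate MMP2, had levels of 10.91, 11.33, 10.88, 11.39 and 10.96 in Uba3 cKO ovaries, against 11.14, 10.97, 11.01, 11.10 and 10.87 in controls. Uba3 cKO replicates 2 and 4 lay above every control and the other 3 within the control range. The difference was 0.075 (standard error 0.10), with 0.0023 without Uba3 cKO replicate 4 and 0.13 without Uba3 cKO replicate 3. Timp3, the matrix-bound TIMP that also inhibits ADAM17, had levels of 8.92, 9.35, 8.83, 9.51 and 8.91 in Uba3 cKO ovaries, against 9.25, 9.05, 8.16, 9.19 and 8.91 in controls. Control replicate 3 lay far below the other libraries, and the difference was 0.19 (standard error 0.20) with it and 0.0022 without it. Without control replicate 1 the difference was 0.27. The exons of Timp3 share 1733 of 8144 bases with Syn3 on the opposite strand.

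Timp1 and Timp4 were lower. Timp1, a secreted inhibitor of most MMPs, had levels of 7.81, 7.59, 7.59, 7.71 and 7.80 in Uba3 cKO ovaries, against 7.78, 7.71, 8.07, 7.58 and 7.36 in controls. The controls held both the highest and the lowest value, and the difference was -0.0023 (standard error 0.12). Timp4 had levels of 4.07, 4.19, 4.15, 4.20 and 4.10 in Uba3 cKO ovaries, against 4.12, 4.06, 4.18, 3.98 and 4.20 in controls. Its difference was 0.036 (standard error 0.060), with 0.0042 without control replicate 4 and 0.059 without control replicate 5. The level of Mmp2 relative to Timp2 within a library, as a log2 difference between the genes, averaged -1.35 ± 0.21 in Uba3 cKO ovaries and -1.60 ± 0.44 in controls (SD, n = 5). That of Mmp14 relative to Timp2 averaged -0.32 ± 0.16 in Uba3 cKO ovaries and -0.24 ± 0.14 in controls. The group means differed by 0.25 for Mmp2 relative to Timp2 and by -0.081 for Mmp14 relative to Timp2 (Uba3 cKO minus control), and neither was tested.

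The members varied more between libraries than most genes did. The median SD over the 10 libraries was 0.189 log2 units for the 43 members and 0.137 for all tested genes, and 36 members lay above the all-gene median. Mmp2 had the largest SD at 0.469, followed by Adam19 at 0.416 and Timp3 at 0.370. Genes with means from 8 to 10, as Mmp2 and Timp3 have, had a median SD of 0.132 and a 90th percentile of 0.250. Genes with means from 6 to 8, as Adam19 has, had a median SD of 0.174 and a 90th percentile of 0.307. Adamts2 at 0.130, Mmp23 at 0.152 and Adam17 at 0.154 were among the steadier abundant members. Since the median SD of all genes was 0.085 for means from 2 to 4 and 0.174 from 6 to 8, the spread of the low genes is compressed on this scale, and their differences may be understated.

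**Figure D3:**
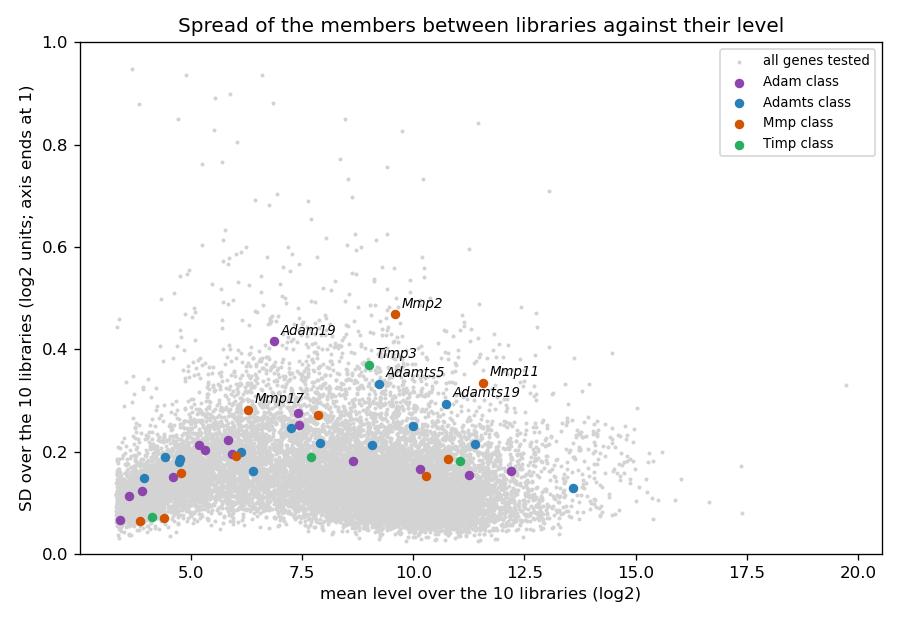
SD over the 10 libraries (y axis, log2 units) against mean level (x axis, log2) for all genes tested in grey and for the 43 tested members coloured by class. Mmp2, Adam19, Timp3, Mmp11 and Adamts5 stand highest among the members, and 12 grey genes with an SD over 1 lie beyond the axis.

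Libraries rich in stromal, endothelial and smooth muscle transcripts were also high in several members. The mean level of 10 fibroblast and stroma markers, all above the filter and none of them a member, was 10.56, 10.99, 10.18, 11.01 and 10.17 in Uba3 cKO replicates 1 to 5, against 10.99, 10.52, 10.47, 10.54 and 10.08 in control replicates 1 to 5. Uba3 cKO replicates 2 and 4 and control replicate 1 had the 3 highest marker levels, and the same libraries held the 3 highest values of Mmp2 at 10.19, 10.07 and 10.12. They also held the 3 highest values of Timp3, Adam19 and Timp2. The same 3 libraries were highest in the means of 8 endothelial markers, at 7.84, 8.05 and 7.79, and of 8 smooth muscle and pericyte markers, at 8.25, 8.37 and 8.46, for Uba3 cKO replicates 2 and 4 and control replicate 1. Mmp11 went the other way in the Uba3 cKO ovaries, with 11.10 and 11.09 in replicates 2 and 4. In control replicate 3, the marker level of 10.47 was near the middle, whereas Mmp2 at 8.97, Timp3 at 8.16 and Adam19 at 6.20 were at or near their lowest. That library held the lowest value of 13 of the 43 members (30.2%), beside 25.5% of all tested genes. It held the highest of 6 members, beside 23.6% of all tested genes. Control replicate 5 held the lowest value of 10 members, beside 11.4% of all tested genes. Uba3 cKO replicate 4 held the highest value of 11 members, beside 11.5% of all tested genes.

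The mean stromal level of the groups was 10.58 ± 0.41 in Uba3 cKO ovaries and 10.52 ± 0.32 in controls (SD, n = 5). When the marker level entered the fit as a covariate (a setting added once the data had been seen), the difference of Mmp2 was 0.25 (standard error 0.12), that of Timp3 0.15 (standard error 0.17) and that of Adam19 0.13 (standard error 0.15). By limma with this covariate all members had an adjusted p of 1.0. The part of the stromal, endothelial and smooth muscle levels and of control replicate 3 in these values was not tested further.

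**Figure D4:**
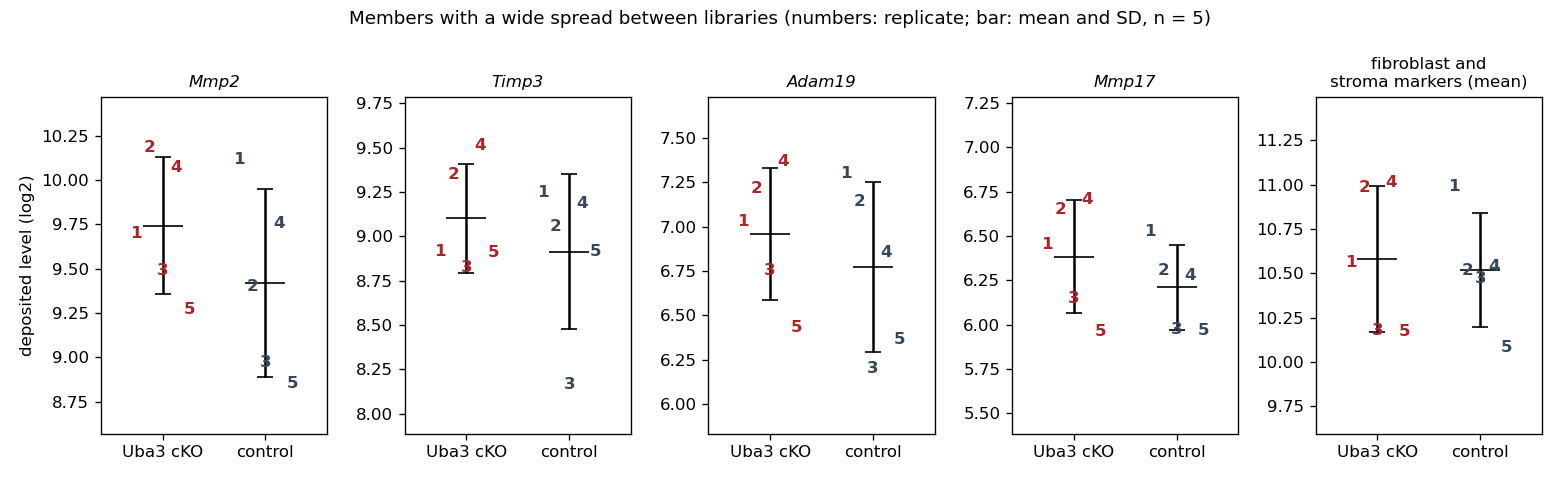
Deposited level (y axis, log2) of Mmp2, Timp3, Adam19 and Mmp17 and the mean of 10 fibroblast and stroma markers in Uba3 cKO ovaries (left) and control ovaries (right) of each panel. Numbers give the replicate and bars the mean and SD (n = 5), and Uba3 cKO replicates 2 and 4 and control replicate 1 are the highest 3 libraries in the Mmp2, Mmp17 and marker panels.

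**Figure D5:**
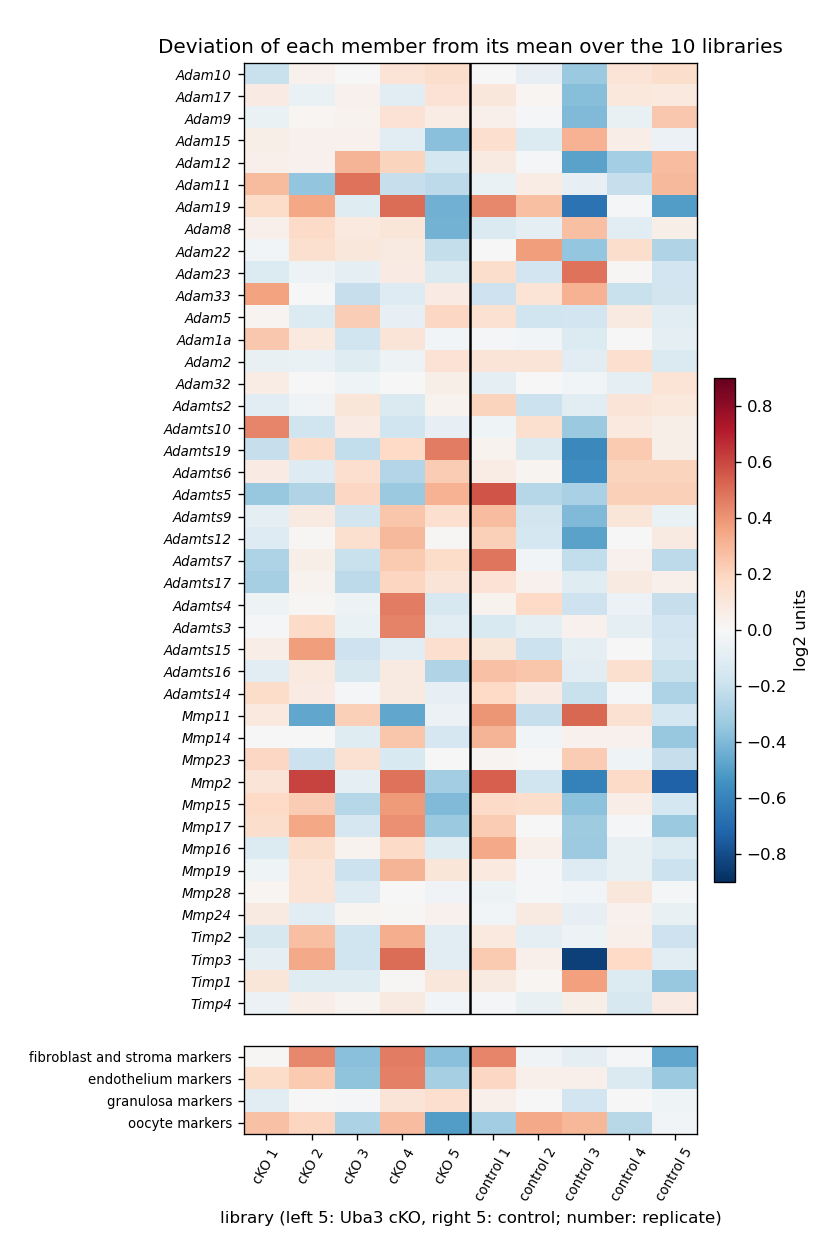
Deviation of each tested member from its own mean over the 10 libraries (colour, log2 units), with Uba3 cKO libraries left of the line and controls right of it, above the same for 4 lists of cell type markers. Control replicate 3 is blue in most rows, with 10 of 43 members above their mean, and control replicate 1 is red in most, with 33.

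Other genes of surface and matrix proteolysis were described from lists of related genes, and in these 0 genes passed adjustment over all genes. Of the 10 tested genes of plasminogen activation, 4 had the higher mean in Uba3 cKO ovaries and 6 the lower (median -0.032). Those with the smallest p were S100a10, at 9.79 ± 0.047 in Uba3 cKO ovaries and 9.94 ± 0.23 in controls, and its partner Anxa2, at 11.02 ± 0.12 in Uba3 cKO ovaries and 11.19 ± 0.31 in controls, which together bind plasminogen at the cell surface. With all libraries their differences were -0.15 for S100a10 and -0.17 for Anxa2. Without control replicate 3 they were -0.055 for S100a10 and -0.045 for Anxa2. The largest were -0.20 for S100a10 without control replicate 5 and -0.24 for Anxa2 without control replicate 2. Of 22 tested partners and inhibitors of the proteases, 10 were higher in mean and 12 lower (median -0.029).

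Within that list, 2 proteins related to the ADAMTS family but without their protease domain had the smallest p. Adamtsl1 had levels of 8.03, 8.13, 7.83, 8.22 and 7.82 in Uba3 cKO ovaries, against 7.58, 7.85, 7.78, 7.54 and 7.86 in controls. The groups overlapped, and the difference was 0.28 (standard error 0.10, unadjusted exact two-sided permutation p = 0.0476, limma adjusted p = 1.0). Papln, papilin, averaged 7.31 ± 0.26 in Uba3 cKO ovaries and 7.09 ± 0.11 in controls. Of 9 tested convertases and other metzincins, 8 had the higher mean in Uba3 cKO ovaries and 1 the lower (median 0.043). Furin, which removes the prodomain of many of these proteases, averaged 11.39 ± 0.059 in Uba3 cKO ovaries and 11.45 ± 0.051 in controls, and Bmp1, a procollagen C-proteinase, 10.60 ± 0.094 in Uba3 cKO ovaries and 10.53 ± 0.070 in controls.

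Possible substrates and genes related to them were taken in 2 lists. Of 10 tested genes of the hyalectan matrix, 4 had the higher mean in Uba3 cKO ovaries and 6 the lower (median -0.056), with Itih2, a hyaluronan-binding inter-alpha-inhibitor chain, at 9.25 ± 0.55 in Uba3 cKO ovaries and 9.65 ± 0.35 in controls, and fibronectin, Fn1, at 9.34 ± 0.37 in Uba3 cKO ovaries and 9.57 ± 0.35 in controls. The difference of Itih2 was -0.40 (95% interval -0.91 to 0.11), with -0.21 without Uba3 cKO replicate 4 and -0.54 without control replicate 2. That of Fn1 was -0.24, with -0.095 without control replicate 1 and -0.34 without Uba3 cKO replicate 4. Of 16 tested shed ligands and receptors, 11 had the higher mean and 5 the lower (median 0.052). Erbb4, a receptor that ADAM17 sheds, had levels of 3.96, 3.91, 3.93, 3.88 and 4.08 in Uba3 cKO ovaries, against 3.77, 3.85, 3.69, 3.84 and 3.80 in controls. All 5 Uba3 cKO values lay above every control, but the level was close to the filter and the difference of 0.16 (standard error 0.057) had an adjusted limma p of 1.0 (unadjusted exact permutation p = 0.00794, the smallest that 5 against 5 can give). Groups that did not overlap were found in 0.320% of all tested genes, and also in 1 of the 9 tested convertases and other metzincins. Nrg1, which encodes a ligand of that receptor, averaged 6.24 ± 0.23 in Uba3 cKO ovaries and 5.95 ± 0.28 in controls, a difference of 0.29 (standard error 0.14).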

How the data were processed

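RNA of whole ovaries was made into Illumina TruSeq libraries and sequenced on a NovaSeq, per the labels' protocols. The submitters' processing notes name fastp, STAR, featureCounts, DESeq2 and GRCm39, without versions or roles. The authors deposited normalized values on a log2 scale, from -0.21 to 20.19, and the transform is not named. No counts could be recovered, so no count model was run and no pseudocount was added. Depth per library and counting error are unknown, and the number of libraries limits precision. No pair of libraries had identical columns.

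Symbols were matched for 22188 of 22891 genes. Exon lengths (bases of all annotated exons joined) and overlaps came from GENCODE M21 on GRCm38, not the authors' build, and served only for names, ordering and shared bases. Exons of 17 members share bases with another gene; whether counting used strand is not given in the sources used here, so these reads may be split or mixed. Of 78 members annotated there, 24 are absent from the deposited values and so are not analysed here. Of 22 listed ADAMs of testis and sperm 7 had values, as did 1 of 4 collagenases. Of 5 listed stromelysins, matrilysin and elastase 2 had values.

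Genes with a mean of at least 10 (linear) were tested with limma (version 3.58.1; R version 4.3.3) using its trend option, no covariate, and Benjamini-Hochberg adjustment over all genes at 0.05. The fit was also run on simulated data with known shifts in abundant genes only, which does not cover the low members. Its outcome is not given and no statement here rests on it. The targeted gene was compared by an exact permutation test. Alternatives were other filters, scalings, variance models, library weights, a replicate block, leaving out each library, and 2 covariates added later.

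The members, lists and rules were chosen with earlier results of these data known. The rule for named genes took Uba3; in the Adam, Adamts and Mmp classes the 3 highest per length and the 2 with the smallest p; all Timp members; the 3 with the largest SD; the highest member of each role; and the 2 genes with the smallest p in each related list. Other members are named to account for all.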

Additional observations from a re-analysis of the deposited data

Results flagged for a closer look

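Among the named members, the values of each group of 5 were examined for a library far from the other 4. Of 48 such groups, 2 were marked, and chance marks about 1 in 20. Adam17 stood at 10.86 in control replicate 3, where the nearest control was at 11.26. Adamts6 stood at 9.42 in the same library, where the nearest control was at 10.01.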

How the results depend on the processing

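No gene and no member passed an adjusted p of 0.05 in any of 19 alternatives (limma), with 199 to 392 genes at an unadjusted p under 0.05 when 1 library was left out, 604 with no filter, 133 when the mean had to reach 50 and 449 with the oocyte level as a covariate. The count of members at an unadjusted p under 0.05 was 0 in the reported fit, 1 without a filter, 1 with library quality weights, 1 with the stroma level and 1 with the oocyte level as a covariate, and 0 to 2 leaving out 1 library. With the replicate block it was 2, Mmp2 and Mmp11, both with an adjusted p of 1.0. No counts over all genes stand beside those of the block, the quality weights and the stroma level, so they are not read further. Whether the numbers pair the ovaries is not given. Correlations of same-numbered deviations ran from -0.27 to 0.28, and only replicate 5 was closest to its own number. So few correlations cannot decide whether the ovaries were paired. The median difference of members was 0.0038 to 0.063 leaving out 1 library.

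Differences near 0 turned in sign, and the cause was not tested. With library quality weights they were 0.016 for Mmp23, -0.048 for Uba3, -0.044 for Adam17, -0.087 for Adamts6, 0.0012 for Mmp14, -0.060 for Adamts10 and 0.039 for Timp1. Uba3 was at -0.0020 with median centring and -0.0022 with the oocyte level. Timp1 was at 0.00049 with the oocyte level, and Mmp23 at 0.0014 and Adam11 at 0.017 with the stroma level. Leaving out 1 library, ranges were -0.028 to 0.10 for Adam10, -0.13 to 0.077 for Adam11, -0.059 to 0.063 for Adam17, -0.013 to 0.15 for Adam9, -0.072 to 0.083 for Adamts10, -0.11 to 0.097 for Adamts6, -0.092 to 0.070 for Mmp14, -0.057 to 0.053 for Mmp23, -0.088 to 0.090 for Timp1 and -0.056 to 0.066 for Uba3.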
